A study of Mus musculus with 12 samples.

Results

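The genes described here encode the protein components of the cytosolic ribosome. They were chosen by name, not by any measured value: a gene was taken if a transcript cluster of the array carried its symbol alone and that symbol had the form of a large-subunit (Rpl) or small-subunit (Rps) ribosomal protein. The rule found 64 of the 22180 genes measured by clusters with 1 symbol, 40 of the large and 24 of the small subunit. A transcript cluster is the array's unit of measurement, a set of probes summarised into 1 log2 value. Where a gene had several clusters, the brightest, by its mean of all 12 arrays, stood for it. Of these 64 genes, 59 passed a filter on low values, 36 of the large and 23 of the small subunit.

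The data are 12 Affymetrix whole-transcript arrays of total RNA from the plantaris, a fast-fibre muscle of the calf. All mice were male, aged 12 weeks, and had food withheld for 3 h. Wild-type and REDD1 knockout mice either stayed sedentary or were sampled 1 h after a single bout of aerobic exercise, with 3 arrays for each of the 4 groups. The labels name no strain background, litter, batch or pooling, and do not say whether the knockout was made in every tissue. They do not state that the arrays of a group came from separate mice, so p-values measure only the spread between these samples, which may be technical.

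Ribosomal proteins and ribosomal RNA are assembled in the nucleolus into a small subunit, which reads the messenger RNA, and a large subunit, which joins amino acids. The messenger RNAs of nearly all these proteins begin with a run of pyrimidines, the 5′ terminal oligopyrimidine (TOP) motif. Through it, the kinase complex mTORC1 sets how strongly they are translated. REDD1, the product of Ddit4, is induced by stress and inhibits mTORC1. In skeletal muscle, making new ribosomes is one of the processes tied to mTORC1 and to growth. An array measures the amount of each messenger RNA and not its translation. In whole muscle, fewer cells of a type and less RNA per cell cannot be told apart.

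The sequences around the annotated starts were searched for such a run of pyrimidines. RefSeq promoter entries (GRCm38.p6, 250 bases before to 50 after each start) matched 49 of the 64 genes, with 58 promoters in all. A tract was sought as a C followed by at least 4 letters C or T, starting within 10 bases of the annotated start. It stood on the gene's strand in 32 of 58 promoters, or 55.2%, against 30.7% of all 32851 promoters in the table. On the opposite strand the same search found it in 20.7% of these promoters and 34.9% of all. Of the 49 genes, 30 (61.2%) had a tract at a start. Windows of 40 bases, from 20 before to 20 after the start, are printed 5′ to 3′ with the tract in capitals. The first 6 genes have a tract and the last 2 have none by this search. Rps13 and Rplp0 are included since they recur in the results.
Rps6 (chr4:86857348-86857387, minus strand): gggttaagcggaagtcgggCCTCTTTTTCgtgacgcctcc
Rpl15 (chr14:18270967-18271006, minus strand): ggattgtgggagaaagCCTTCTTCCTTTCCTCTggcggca
Rpl28 (chr7:4792945-4792984, plus strand): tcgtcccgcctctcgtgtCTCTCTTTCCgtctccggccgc
Rpl38 (chr11:114668560-114668599, plus strand): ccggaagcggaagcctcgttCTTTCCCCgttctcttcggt
Rps18 (chr17:33955646-33955685, minus strand): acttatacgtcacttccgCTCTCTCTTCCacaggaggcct
Rps27 (chr3:90213629-90213668, minus strand): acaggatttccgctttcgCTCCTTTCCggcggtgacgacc
Rps13 (chr7:116334171-116334210, minus strand): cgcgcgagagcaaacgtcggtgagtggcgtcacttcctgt
Rplp0 (chr5:115559447-115559486, plus strand): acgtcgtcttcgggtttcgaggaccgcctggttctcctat

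The windows read alike in the first 6 genes: the tract opens within 2 bases of the start in Rps6, Rpl28, Rpl38, Rps18 and Rps27, and 4 bases before it in Rpl15. The tract was 8 bases long in Rpl38 and 17 in Rpl15. These 6 windows do not stand for all promoters with a tract. In some others it opened farther from the start, at -10 in Rpl7a, -9 in Rpl10a, 8 in Rps12 and 9 in Rpl3l. The letters CGGAAG, the core of ETS-family sites, were searched on both strands of the 300-base promoters. They were present in 58.6% of the promoters of these genes and 16.9% of all promoters. AAGATGG, a YY1-like sequence, was present in 10.3% and 6.34%. A match describes these letters in this window and no more.

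The rule did not reach every ribosomal protein. Of a reference list of 79 mammalian ribosomal protein genes, 57 were among the 64. Another 12 appeared only in clusters that list several symbols, among them Rpl10. The remaining 10 were in neither class. They include Fau and Rps3a1, whose names the rule does not cover but which have clusters of their own, described below. The other 7 of the 64 were paralogues or like-named genes outside that list: Rpl3l, Rpl6l, Rpl10l, Rpl32l, Rpl39l, Rps4l and Rps27l. A gene passed the filter when at least 3 of the 12 arrays gave it a value above 4.56, the table median. The 5 that did not pass were Rpl11, Rps20, Rpl27a, Rpl10l and Rpl32l. Their highest values on any array were 4.55, 4.21, 3.78, 3.55 and 2.71. Rpl11 is a partner of Rpl5 in the particle that carries 5S ribosomal RNA, and Rpl10l is known chiefly from testis. The 59 genes divided into 32 with a mean level above 8, called bright here, and 27 at or below it, called dim. For 12 of the 64 genes, among them Rpl5, Rpl34, Rpl37a, Rps27 and Rplp2, a brighter cluster exists that lists several symbols and was therefore not used by gene. These levels are probe signals and do not rank the genes by abundance.

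Where each cluster belongs in the genome had to be checked, because ribosomal protein genes are known for many processed copies elsewhere in mammalian genomes. Cluster identifiers run along the genome, so the genes named by the 3 nearest identifiers on each side give a cluster's place. A cluster was taken to lie in its gene's own neighbourhood when at least 2 of these 6 lay within 50 genes of it in the RefSeq gene order. Of all clusters with 1 symbol and a RefSeq entry, 97.9% did so. Among the 104 clusters of the 64 genes, 61 did and 43 (41.3%) lay elsewhere. The cluster used here lay elsewhere for 24 of the 59 genes (40.7%), against 1.17% of all genes tested. Of the 32 bright genes, 18 were measured by such a cluster, and of the 27 dim genes, 6. The probe sequences were not used here, so whether such a cluster detects the gene, a copy or both was not tested. The 24 genes read from clusters elsewhere were Rpl3, Rpl7, Rpl7a, Rpl9, Rpl13, Rpl15, Rpl19, Rpl21, Rpl23a, Rpl27, Rpl28, Rpl29, Rpl35, Rpl39, Rpl41, Rplp0, Rps6, Rps13, Rps18, Rps19, Rps24, Rps26, Rps28 and Rpsa.

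Differences were tested with limma, a linear model that shares information on variance between genes, and p-values were adjusted by the Benjamini-Hochberg method over the 13747 genes that passed the filter. Arrays were alike in overall level, with medians between 4.52 and 4.6. All 12 markers of fast muscle passed, with mean levels from 12.2 to 13.6. Ddit4 lay 2.91-fold lower in knockout than in wild-type arrays (log2 difference -1.54, SE 0.16, adjusted p = 0.000137) and was still detected. In knockout sedentary replicate 3, matrix and fibroblast markers lay, in log2 units, 0.870 above their mean over the 12 arrays, and at 0.175 and -0.138 on replicates 1 and 2. The 9 leukocyte markers that passed stood at 0.397 on that array and at 0.263 and -0.162 on replicates 1 and 2. The ribosomal protein genes lay at -0.075 on replicate 3 and at 0.110 and -0.038 on replicates 1 and 2. Whether these levels are related was not tested.

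Ribosomal protein messages 1 h after exercise differed little from sedentary levels in wild-type muscle. Across the 59 genes, the log2 difference of exercised minus sedentary had a median of 0.06, with quartiles at -0.02 and 0.16. Over all 13747 genes tested the median was -0.02. The differences ran from -0.40 for Rps14 to 0.42 for Rps4l. Values above 0 were found for 42 of 59 genes, where 45% of all genes tested had such values. Rpl9, a large-subunit protein near the stalk base, stood at 0.35 (SE 0.17), Rpl7 at 0.26 (SE 0.16) and Rpl6l at 0.23 (SE 0.11). The values of Rpl9 and Rpl7 came from clusters elsewhere. On their own-neighbourhood clusters Rpl9 stood at -0.36 (SE 0.14, limma adjusted p = 0.45), and Rpl7, below the filter there, at -0.10. In the other direction, Rpl5, which carries 5S ribosomal RNA, stood at -0.26 (SE 0.16) and Rps27 at -0.25 (SE 0.13).

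None of the 59 was called in wild type at an adjusted p under 0.05 by limma, which called 0.567% of all genes. An unadjusted p under 0.05 was found for 1 of them and for 8.21% of all genes, and an ordinary linear model without moderation called 0. How many of all genes that model called is given below for genotype averaged over conditions alone. A count of 0 from it therefore says little about these genes. The smallest adjusted p was that of Rps14, a small-subunit protein of the platform, at 0.353. It read 5.45, 5.42 and 5.58 for sedentary wild type and 5.27, 5.06 and 4.91 for exercised wild type. All exercised values were below all sedentary values (-0.40, SE 0.13). Groups did not overlap for 3 of 59 genes, Rps14, Rpl10a and Rps9, where 12.9% of all genes were without overlap. The differences of Rpl10a (-0.07, SE 0.09) and Rps9 (0.06, SE 0.08) were smaller than their standard errors.

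How large a change these arrays leave room for can be read from the 95% intervals, each for a single gene and not adjusted. In wild type the interval lay inside a 1.5-fold change in either direction (0.585 on the log2 scale) for 49 of 59 genes, against 84.1% of all genes tested. It did so for 31 of the 32 bright genes and 18 of the 27 dim genes. The bright exception was Rpl7, whose interval ran from -0.09 to 0.61. The median standard error was 0.10 in bright and 0.16 in dim genes, so the dim genes were measured less precisely.

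In REDD1 knockout muscle the same comparison also gave values near 0. The median was 0.01, against 0 over all genes tested, and 35 of 59 were above 0, where 49.4% of all genes were. The range ran from -0.29 for Rps7 to 0.31 for Rpl6, a large-subunit protein. Rpl6 read 5.99, 5.70 and 6.11 for sedentary knockout and 6.34, 6.08 and 6.33 for exercised knockout. These groups overlapped, since sedentary replicate 3 exceeded exercised replicate 2. The difference for Rpl6 was 0.31 (SE 0.12, limma adjusted p = 0.408), the smallest adjusted p among the 59.

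Limma called none of the 59 in the knockout either, and 0.276% of all genes. By unadjusted p under 0.05 there was 1, against 8.93% of all genes, and the ordinary linear model called 0. Groups did not overlap for 4 of 59, where 13.9% of all genes did not: Rpl9 (0.29, SE 0.17), Rpl37a (0.29, SE 0.18) and Rpl39l (0.28, SE 0.16) were higher and Rpl14 (-0.06, SE 0.08) lower. The own-neighbourhood cluster of Rpl9 stood at -0.11 (SE 0.14). All 32 bright genes and 17 of the 27 dim genes had intervals inside a 1.5-fold change, together 49 of 59, against 84% of all genes.

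Whether the exercise effect depended on genotype was tested as the knockout effect minus the wild-type effect. The median difference of effects was -0.05, against 0.02 over all genes, and 21 of 59 were above 0, where 53.2% of all genes were. Limma called none of the 59 and none of the 13747 genes (0%), and the ordinary linear model called 0 of the 59. An unadjusted p under 0.05 was found for 1 of the 59, against 4.51% of all genes. This was Rps14, which stood at 0.41 (SE 0.19, limma adjusted p = 0.997). It was -0.40 after exercise in wild type and 0.01 in the knockout, where its levels were 5.32, 5.22 and 4.88 when sedentary and 5.16, 5.14 and 5.16 when exercised. The values farthest below 0 were those of Rps4l (-0.59, SE 0.38), Rps15 (-0.56, SE 0.37) and Rps13 (-0.49, SE 0.41), and next above 0 came Rpl5 (0.39, SE 0.22) and Rpl37a (0.36, SE 0.25). Intervals inside a 1.5-fold difference were found for 30 of 32 bright but only 8 of 27 dim genes, 38 of 59 in all, against 58.2% of all genes. For the dim genes this comparison leaves a wide range of differences possible.

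Averaged over genotypes, with 6 arrays on each side, exercised and sedentary muscle had nearly the same levels. The median over the 59 genes was 0.03, against -0.01 over all genes, with 38 of 59 above 0 where 45.7% of all genes were. Limma called 0 of 59 and 1.6% of all genes. At an unadjusted p under 0.05 there were 4, Rpl9, Rpl6l, Rpl6 and Rps26, all with higher values, against 11.2% of all genes, and the ordinary linear model called 0. Rpl9 stood at 0.32 (SE 0.12, limma adjusted p = 0.306), Rpl6l at 0.20 (SE 0.08), Rpl6 at 0.21 (SE 0.09) and Rps26 at 0.19 (SE 0.09). Rpl9 and Rps26 were read from clusters elsewhere. Their own-neighbourhood clusters stood at -0.24 (SE 0.10) for Rpl9 and, below the filter, at 0.17 for Rps26. Rpl6l read 8.76, 9.15 and 8.80 for sedentary wild type, 9.12, 9.07 and 9.20 for exercised wild type, 8.94, 9.09 and 8.85 for sedentary knockout and 9.15, 9.07 and 9.20 for exercised knockout. The exercised values lay close together and 1 sedentary value in each genotype reached them.

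On the averaged effect the intervals were narrow. They lay inside a 1.5-fold change for 57 of 59 genes, against 94.9% of all genes, the exceptions being the dim genes Rpl17 and Rpl30. In none of the 59 were the exercised arrays free of overlap with the sedentary arrays in both genotypes in the same direction, where 2.56% of all genes were. The plot of differences and intervals for all 59 genes shows this closeness to 0.

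**Figure D1:**
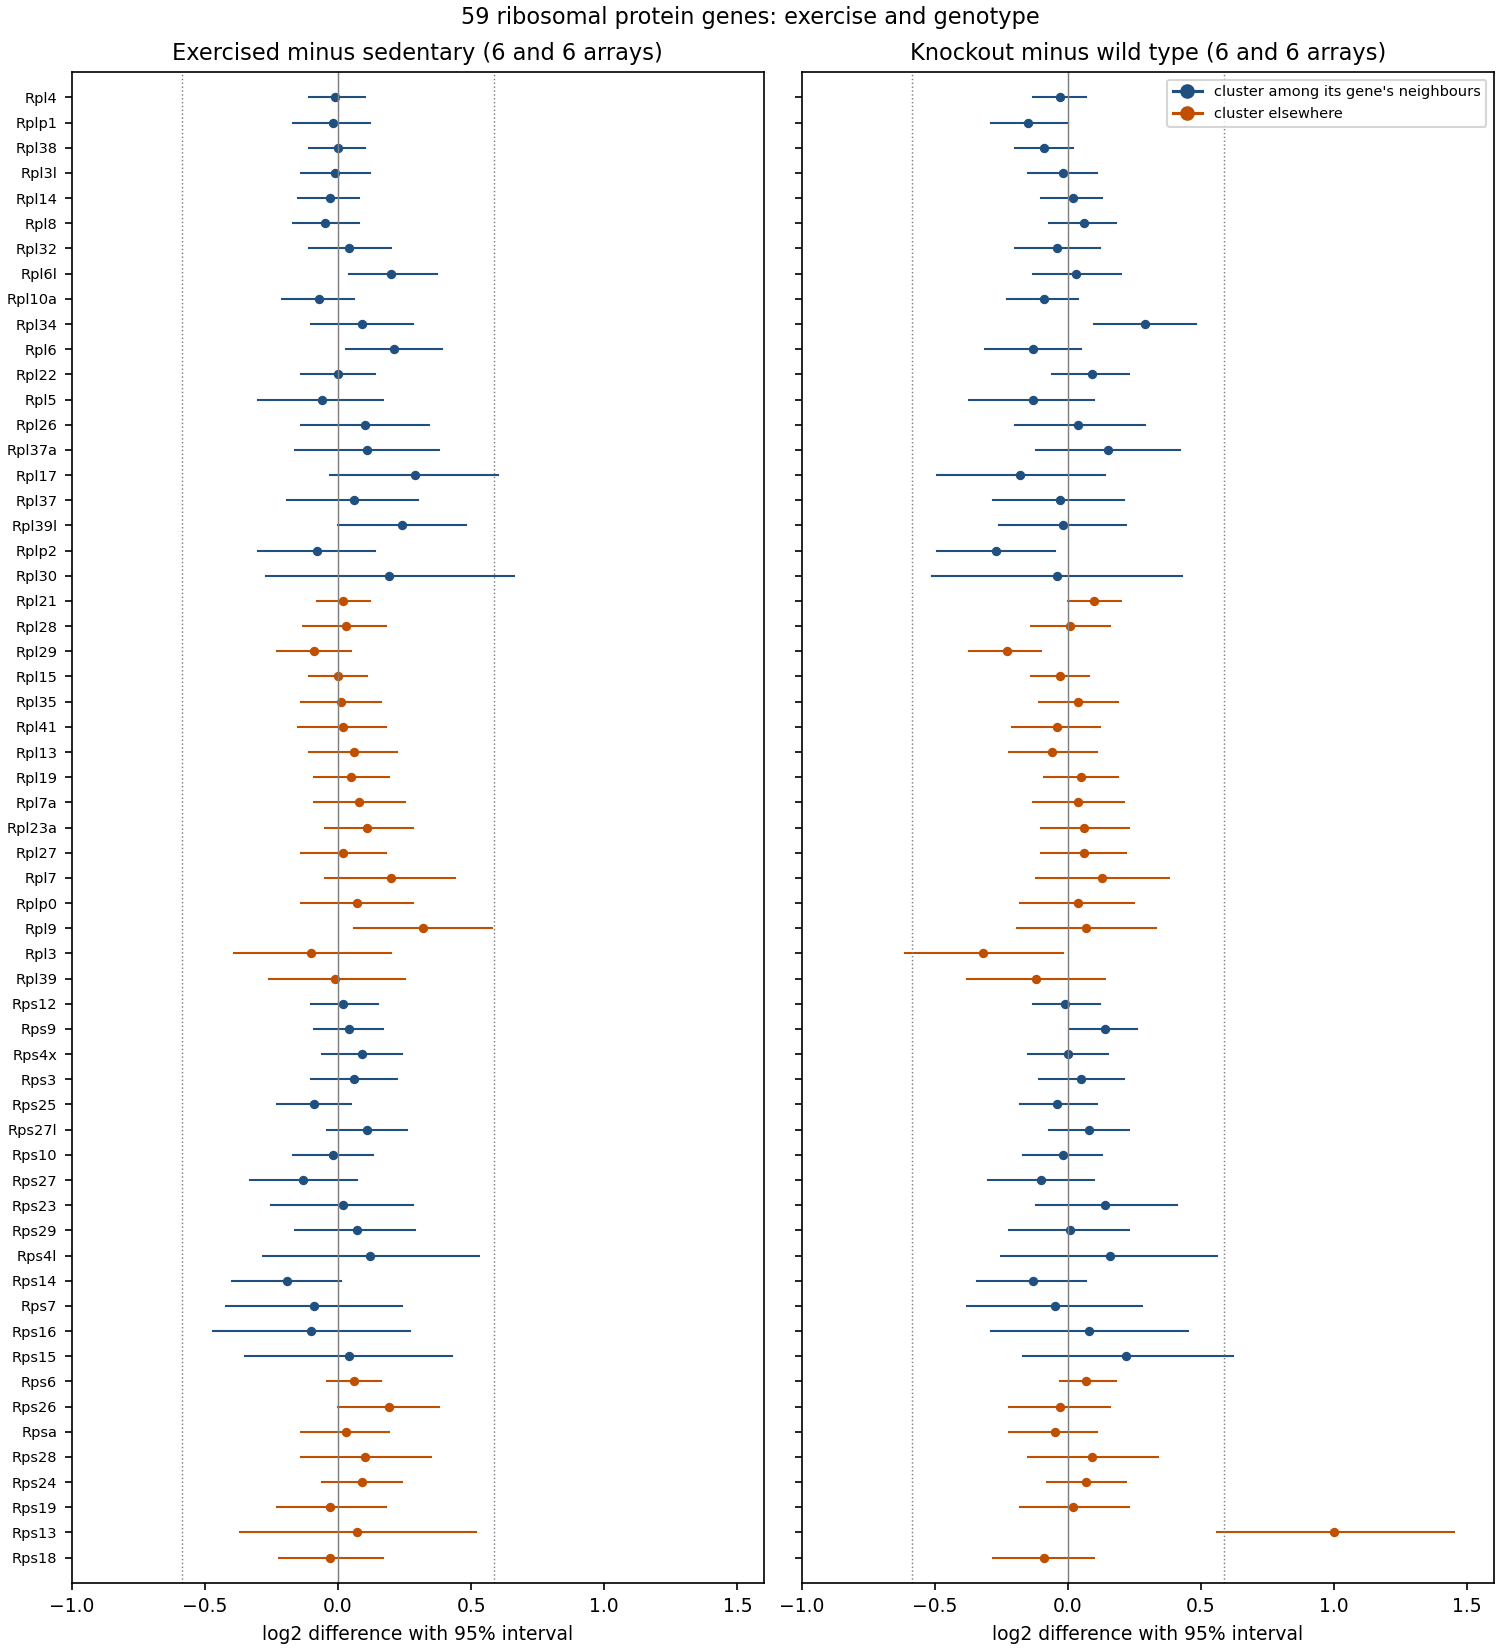
Log2 differences (horizontal axis) of the 59 genes for exercised minus sedentary (left) and REDD1 knockout minus wild type (right), each averaged over the other factor, with 95% intervals from the limma fit; dotted lines mark a 1.5-fold change. Blue marks clusters in their gene's own neighbourhood and orange those elsewhere; all intervals but those of Rpl17 and Rpl30 (left) and Rpl3, Rps13 and Rps15 (right) lie between the dotted lines.

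Without exercise, knockout minus wild type ran from -0.34 for Rps14 to 1.25 for Rps13, followed by Rps15 at 0.51 (SE 0.26) and Rps4l at 0.45 (SE 0.27). The median over the 59 genes was 0.05, against -0.01 over all genes, with 36 of 59 above 0 where 46% of all genes were. Limma called 0 of 59 and 0.138% of all genes. By unadjusted p under 0.05 there were 4, against 7.7% of all genes: Rps13, Rpl34 and Rpl21 with higher and Rps14 with lower values. The ordinary linear model called 0. Rpl34, a large-subunit protein, read 6.21, 6.37 and 6.14 for sedentary wild type and 6.67, 6.43 and 6.78 for sedentary knockout. All knockout values exceeded all wild-type values (0.39, SE 0.13, limma adjusted p = 0.438). In exercised arrays Rpl34 read 6.61, 6.23 and 6.43 for wild type and 6.76, 6.53 and 6.56 for the knockout, with overlap (0.19, SE 0.13).

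Sedentary groups did not overlap for 9 of 59 genes, where 13.1% of all genes did not. Rps13, Rps4l, Rpl34, Rps9 and Rpl21 were higher and Rps14, Rpl5, Rps27 and Rpl29 lower in the knockout. Rpl5 read 6.06, 6.06 and 5.98 for sedentary wild type and 5.54, 5.84 and 5.75 for sedentary knockout (-0.32, SE 0.16, limma adjusted p = 0.651). Rps14 stood at -0.34 (SE 0.13) and Rpl21 at 0.15 (SE 0.07). Rpl21 was read from a cluster elsewhere, and its own-neighbourhood cluster stood at 0.30 (SE 0.14). In 32 of 32 bright and 17 of 27 dim genes the interval lay inside a 1.5-fold difference, 49 of 59 in all, against 85% of all genes.

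After exercise, the genotype differences of these genes were centred on 0 to the precision reported. The median difference was 0, as over all genes, and 28 of 59 were above 0 where 49.3% of all genes were. Limma called 0 of 59 and 0.175% of all genes, and the ordinary linear model called 0. An unadjusted p under 0.05 was found for 4, against 6.58% of all genes: Rps13 with higher values and Rpl29, Rpl3 and Rplp2 with lower values in the knockout. Rpl37a stood at 0.33 (SE 0.18, limma adjusted p = 0.82), with overlapping groups. Groups did not overlap for 7 of 59, where 11.7% of all genes did not, and 49 of 59 intervals lay inside a 1.5-fold difference, against 86.2% of all genes. Exercised wild-type arrays enter this comparison and the exercise comparison in wild type, so the comparisons are not independent.

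Averaged over conditions, 1 of the 59 genes was called for genotype, Rps13, where limma called 0.546% of all genes. The median over the 59 was 0.01, against -0.01 over all genes, and 31 of 59 were above 0 where 47.4% of all genes were. At an unadjusted p under 0.05 there were 7 of 59, against 9.36% of all genes. The ordinary linear model called 0 of the 59 and only 23 of all genes tested. The genes next in order by p were Rpl29 (-0.23, SE 0.06, limma adjusted p = 0.158), Rpl34 (0.29, SE 0.09, adjusted p = 0.243) and Rplp2 (-0.27, SE 0.10, adjusted p = 0.386). Rpl3 stood at -0.32 (SE 0.14) and Rps9 at 0.14 (SE 0.06), both at an adjusted p of 0.493. Intervals lay inside a 1.5-fold difference for 56 of 59 genes, against 96.1% of all genes, and for all 32 bright genes.

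Rps9, a small-subunit protein that binds early in assembly, was the 1 gene of 59 whose knockout arrays lay above all wild-type arrays in both conditions, where 1.53% of all genes were free of overlap in this way in either direction. It read 8.81, 8.82 and 8.82 for sedentary wild type and 9.08, 8.93 and 8.92 for sedentary knockout. The exercised values were 8.90, 8.89 and 8.84 for wild type and 9.09, 8.92 and 8.96 for the knockout. After exercise the lowest knockout value, 8.92, lay next to the highest wild-type value, 8.90.

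Rps13, a small-subunit protein that contacts the large subunit, had the largest genotype difference of the 59. On the log2 scale it read 5.82, 6.19 and 5.44 for sedentary wild type and 7.43, 7.31 and 6.47 for sedentary knockout. In exercised arrays it read 5.61, 6.42 and 6.38 for wild type and 7.38, 6.95 and 6.36 for the knockout. Knockout and wild type were apart without exercise and overlapped after it, where knockout replicate 3 lay below 2 wild-type arrays. The averaged difference was 1.0 (SE 0.21, 95% interval 0.56 to 1.45), or 2.01-fold higher in the knockout, with a limma adjusted p of 0.0451. By condition it was 1.25 (SE 0.29, limma adjusted p = 0.186) when sedentary and 0.76 (SE 0.29, limma adjusted p = 0.631) when exercised.

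The call for Rps13 was marginal. It passed in 2 of the 12 fits that each left out 1 array, without knockout sedentary replicate 3 (1.15, adjusted p = 0.0135) and without knockout exercised replicate 3 (1.14, adjusted p = 0.0217). In the other 10 it did not, with adjusted p up to 0.129 and differences from 0.87. It also failed to pass without the filter on low values, without the intensity trend and without moderation.

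The cluster read for Rps13 lay outside the gene's own neighbourhood by the rule used here, though most of its neighbours lay on chromosome 7, as does Rps13. Other clusters that list Rps13 did not share its pattern. A cluster that lists Rps13 with the gene models Gm15483 and Rps13-ps4, the latter named as a pseudogene, went the other way. It read 6.93, 7.07 and 6.47 for sedentary wild type, 7.03, 7.13 and 7.13 for exercised wild type, 5.57, 4.89 and 5.17 for sedentary knockout and 5.51, 4.85 and 6.93 for exercised knockout. All knockout sedentary values lay below all wild-type values, while knockout exercised replicate 3 stood among the wild-type values. In a fit of all clusters, this cluster's averaged difference was -1.47 (SE 0.28, limma adjusted p = 0.0573), and the cluster used for Rps13 stood at 1.0 (SE 0.23, limma adjusted p = 0.125).

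A further cluster, which lists Rps13 and the small nucleolar RNA gene Snord14a, lay at 4.43 to 4.98 on all arrays, with an averaged difference of 0.04 (SE 0.11). The remaining cluster, listing Rps13, Gm15483 and Rps13-ps4 in another order, stayed between 2.90 and 4.13 and was below the filter. The genotype difference printed for Rps13 is therefore that of 1 cluster. Which transcripts each cluster detects, and whether the mice differ in sequence under its probes, was not tested.

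**Figure D2:**
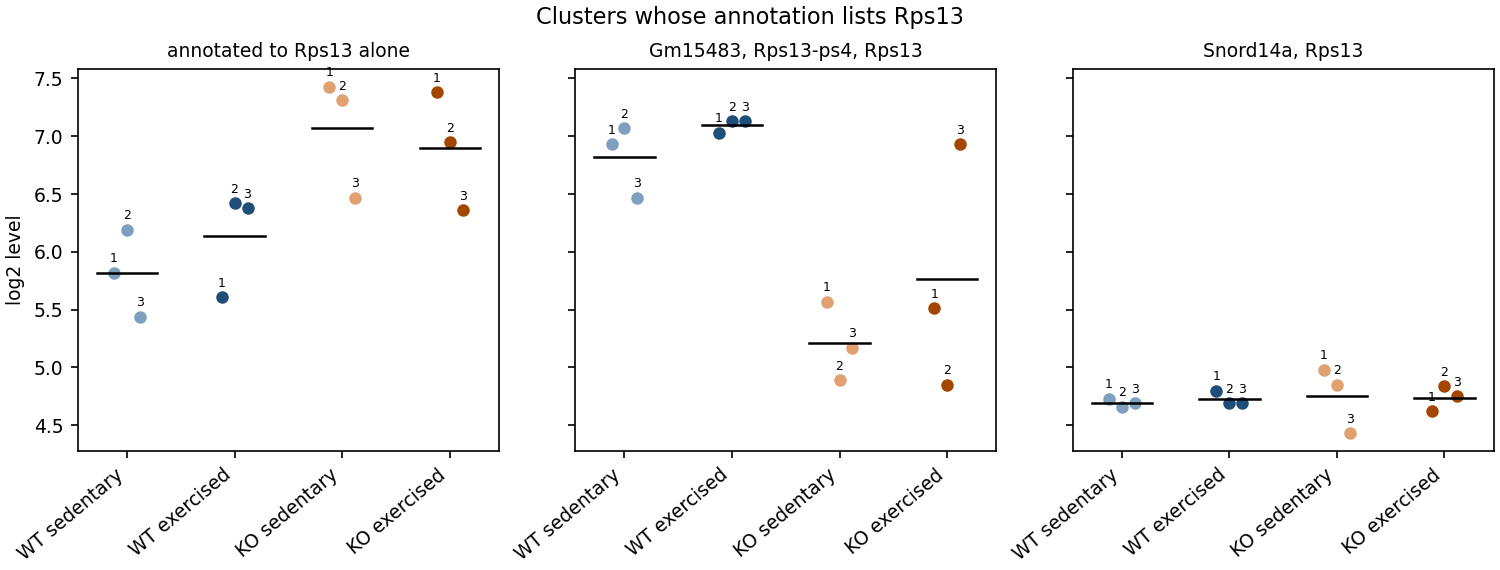
Log2 level (vertical axis) on each array, by group, of 3 clusters whose annotation lists Rps13; points are arrays with their replicate numbers, bars are group means, WT is wild type and KO is REDD1 knockout. The cluster annotated to Rps13 alone lies above all wild-type arrays on 5 of 6 knockout arrays, the cluster shared with Gm15483 and Rps13-ps4 lies below them on 5 of 6, and the cluster shared with Snord14a shows no genotype difference of that size.

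Rpl29, Rpl9 and Rpl3, also among the genes with leading differences, were likewise read from clusters elsewhere, while Rpl34, Rplp2, Rps14 and Rpl6 were read from their own neighbourhoods. For 18 genes measured by a cluster elsewhere, another cluster with the same single symbol lay in the gene's own neighbourhood, and for 13 of them it passed the filter. The differences of these pairs had the same sign in 8 of 13 genes for genotype averaged over conditions and in 6 of 13 for exercise averaged over genotypes. The own-neighbourhood clusters had lower levels by construction, since the brightest cluster had been taken.

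Rpl29, a large-subunit protein, gave opposite directions for genotype. The cluster elsewhere, next to genes of chromosome 1 while Rpl29 is on chromosome 9, read 11.83, 11.65 and 11.84 for sedentary wild type and 11.56, 11.57 and 11.64 for sedentary knockout. After exercise it read 11.58, 11.78 and 11.84 for wild type and 11.31, 11.60 and 11.43 for the knockout. The knockout values were lower without overlap when sedentary, and when exercised they overlapped at 1 knockout value (-0.23, SE 0.06).

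The own-neighbourhood cluster of Rpl29 read 7.45, 7.10 and 7.64 for sedentary wild type, 7.02, 7.35 and 7.28 for exercised wild type, 7.70, 7.72 and 7.74 for sedentary knockout and 7.47, 7.69 and 7.53 for exercised knockout. Here the knockout was higher in both conditions, without overlap (0.34, SE 0.09, limma adjusted p = 0.158). Neither cluster of Rpl29 was called by limma with all 12 arrays weighted equally. With array weights the cluster elsewhere was called (-0.26, adjusted p = 0.0308), as it was without wild-type exercised replicate 1 (-0.27, adjusted p = 0.0453).

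Rpl9 gave opposite directions for exercise. Its cluster elsewhere, with neighbours on chromosome 13 while the gene is on chromosome 5, read 7.16, 7.90 and 7.05 for sedentary wild type and 7.71, 7.74 and 7.72 for exercised wild type. It read 7.59, 7.62 and 7.22 for sedentary knockout and 7.75, 7.75 and 7.80 for exercised knockout. The exercised values hardly varied, and the sedentary values spread on both sides of them in wild type and below them in the knockout. Without wild-type sedentary replicate 2, the array with the value of 7.90, the averaged difference was 0.45 and passed (limma adjusted p = 0.0146).

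On the own-neighbourhood cluster of Rpl9 the values were 4.72, 4.95 and 4.74 for sedentary wild type, 4.44, 4.28 and 4.61 for exercised wild type, 4.76, 4.76 and 4.75 for sedentary knockout and 4.55, 4.59 and 4.80 for exercised knockout. Exercised values were lower in wild type without overlap, and the averaged difference was -0.24 (SE 0.10, limma adjusted p = 0.343).

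Rpl3, which lies close to the site where amino acids are joined, had the largest negative genotype difference. Its cluster elsewhere, with neighbours on chromosome X while the gene is on chromosome 15, read 7.22, 7.16 and 7.21 for sedentary wild type, 7.37, 7.02 and 7.29 for exercised wild type, 7.0, 6.55 and 7.47 for sedentary knockout and 7.17, 6.59 and 6.60 for exercised knockout. Of the 6 knockout values, 4 lay below every wild-type value, while sedentary replicate 3 was the highest of all 12. The own-neighbourhood cluster of Rpl3 lay between 5.87 and 6.24 on all arrays, with a genotype difference of 0.01 (SE 0.08).

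**Figure D3:**
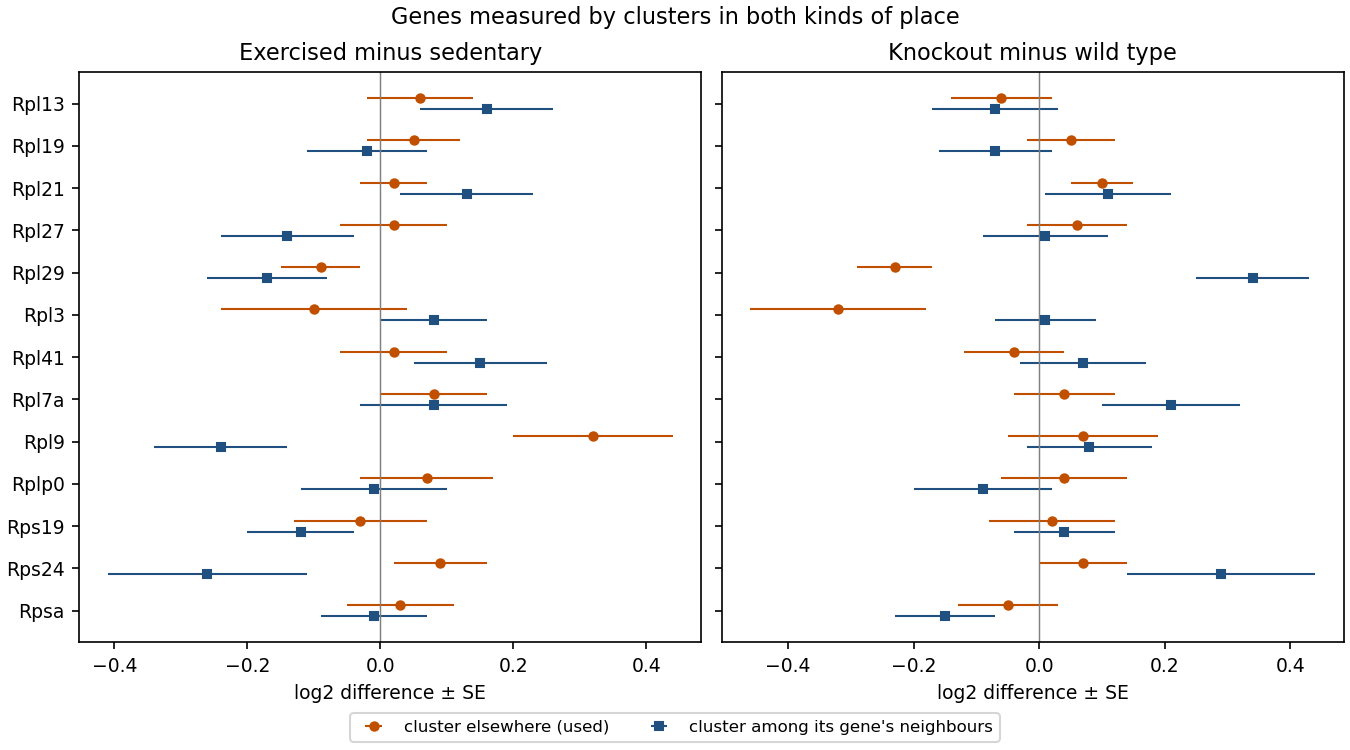
Log2 differences (horizontal axis, ± SE) for 13 genes with a passing cluster in both kinds of place, for exercised minus sedentary (left) and REDD1 knockout minus wild type (right), each averaged over the other factor. Orange circles are the brighter clusters elsewhere, used in the main comparison, and blue squares those in the gene's own neighbourhood; Rpl29 (right) and Rpl9 (left) have opposite signs.

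Among genes with a role of their own, Rps6, the small-subunit protein phosphorylated by S6 kinase downstream of mTORC1, varied little. It read 11.36, 11.46 and 11.38 for sedentary wild type, 11.50, 11.41 and 11.47 for exercised wild type, 11.53, 11.47 and 11.43 for sedentary knockout and 11.49, 11.54 and 11.57 for exercised knockout. All 12 values lay between 11.36 and 11.57, and the groups overlapped in every comparison. The exercise difference was 0.06 (SE 0.05, 95% interval -0.04 to 0.16) and the genotype difference 0.07 (SE 0.05, 95% interval -0.03 to 0.18). The cluster of Rps6 lay elsewhere and no own-neighbourhood cluster carried the symbol alone. The same held for Rps13, Rpl15, Rpl23a, Rpl28 and Rpl39.

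The stalk proteins, which draw translation factors to the large subunit, are encoded by Rplp0, Rplp1 and Rplp2. Rplp1 read 11.05, 11.10 and 11.14 for sedentary wild type, 11.34, 10.99 and 11.03 for exercised wild type, 11.12, 10.88 and 10.99 for sedentary knockout and 10.93, 10.96 and 10.88 for exercised knockout. The exercised groups did not overlap, with the knockout lower, while the sedentary groups did. The averaged genotype difference of Rplp1 was -0.15 (SE 0.07, limma adjusted p = 0.52).

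Rplp2 was dim, at 4.55, 4.68 and 4.66 for sedentary wild type, 4.51, 4.83 and 4.58 for exercised wild type, 4.33, 4.35 and 4.66 for sedentary knockout and 4.26, 4.17 and 4.40 for exercised knockout. Several of these values lay under the table median, and the exercised groups did not overlap (-0.36, SE 0.15, limma adjusted p = 0.686). Rplp2 also appears in a brighter cluster that lists several symbols. Rplp0 differed by 0.07 (SE 0.10) with exercise and 0.04 (SE 0.10) with genotype on a cluster elsewhere, and by -0.01 (SE 0.11) and -0.09 (SE 0.11) on its own-neighbourhood cluster.

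Rpsa, a small-subunit protein also described as a laminin receptor, differed by 0.03 (SE 0.08) with exercise and -0.05 (SE 0.08) with genotype on a cluster elsewhere. On its own-neighbourhood cluster these were -0.01 (SE 0.08) and -0.15 (SE 0.08, limma adjusted p = 0.608). Rpl4, whose protein lines the exit tunnel, varied little, at 12.01, 11.89 and 11.93 for sedentary wild type, 11.85, 11.99 and 11.90 for exercised wild type, 11.87, 11.95 and 11.85 for sedentary knockout and 11.88, 11.92 and 11.92 for exercised knockout. All groups overlapped. Its own-neighbourhood cluster differed by -0.01 (SE 0.05) with exercise and -0.03 (SE 0.05) with genotype. Rpl5 differed by -0.06 (SE 0.11) and -0.13 (SE 0.11) on the averaged comparisons.

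Paralogue pairs allow tissue-restricted and general forms to be set side by side. Rpl3l, the form of Rpl3 found mainly in heart and skeletal muscle, read 10.57, 10.67 and 10.52 for sedentary wild type, 10.52, 10.49 and 10.53 for exercised wild type, 10.66, 10.49 and 10.37 for sedentary knockout and 10.60, 10.46 and 10.60 for exercised knockout. The values overlapped in every comparison of groups. Rpl3l differed by -0.01 (SE 0.06) with exercise and -0.02 (SE 0.06) with genotype, and its cluster lay in its own neighbourhood.

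Rps27l, a p53-inducible paralogue, differed by 0.11 (SE 0.07) with exercise and 0.08 (SE 0.07) with genotype. Rps27 differed by -0.13 (SE 0.09) and -0.10 (SE 0.09), and neither gene was called. Rps27 read 6.03, 6.08 and 6.39 for sedentary wild type, 5.92, 5.71 and 6.10 for exercised wild type, 5.99, 5.82 and 6.02 for sedentary knockout and 5.94, 6.08 and 5.79 for exercised knockout. The highest value was that of wild-type sedentary replicate 3, and the sedentary groups did not overlap (-0.22, SE 0.13, limma adjusted p = 0.75).

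Rpl39l, a paralogue known chiefly from testis, stood close to the filter at 4.58, 4.85 and 4.41 for sedentary wild type, 4.63, 4.78 and 5.02 for exercised wild type, 4.64, 4.46 and 4.54 for sedentary knockout and 4.73, 4.68 and 5.07 for exercised knockout. Exercised values were higher without overlap in the knockout and overlapped in wild type, with an averaged difference of 0.24 (SE 0.11, limma adjusted p = 0.452). Its general form Rpl39 differed by -0.01 (SE 0.12) with exercise and -0.12 (SE 0.12) with genotype. Rps4l differed by 0.12 (SE 0.19) and 0.16 (SE 0.19), and its general form Rps4x by 0.09 (SE 0.07) and 0 (SE 0.07).

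The subunits had like medians. For exercise averaged over genotypes the median was 0.02 over 36 large-subunit and 0.04 over 23 small-subunit genes, and for genotype averaged over conditions it was -0.02 and 0.02. The medians of genes with and without a tract at the start were also close. Among the 45 genes that passed and had a promoter entry, 27 with a tract had a median exercise difference of 0.01 (range -0.13 to 0.24), and 18 without had 0.06 (range -0.10 to 0.32). For genotype the medians were -0.01 and 0.04. This division depends on the annotated start, which was the gene's outermost RefSeq start in 41 of 58 promoters. Rpl4, Rpl5 and Rps25 counted as without a tract, though pyrimidine runs lay farther upstream in their windows. Genes without a tract here are therefore not shown to lack a TOP motif.

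Within each group, the set as a whole moved from array to array. The mean deviation of the 59 genes from their own 12-array means was -0.079, 0.048 and -0.089 for sedentary wild type replicates 1, 2 and 3, and 0.075, -0.013 and 0.013 for exercised wild type ones. It was 0.110, -0.038 and -0.075 for sedentary knockout and 0.092, -0.047 and 0.001 for exercised knockout. Group means were -0.040 ± 0.076, 0.025 ± 0.045, -0.001 ± 0.098 and 0.016 ± 0.071 (SD, n = 3) in that order. The groups overlapped, and the array level of all genes tested moved between -0.042 and 0.021.

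These shifts were shared by many genes. On knockout sedentary replicate 1, 48 of 59 genes stood above their own mean, and on replicate 2 of that group 17 did. On wild-type sedentary replicates 1, 2 and 3 the counts were 23, 44 and 20, and on knockout exercised replicates 1, 2 and 3 they were 46, 20 and 31. Among the wild-type exercised arrays, 41, 23 and 31 genes stood above their mean. The same counts were not made over all genes tested, so whether such shifts are particular to this set was not tested.

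**Figure D4:**
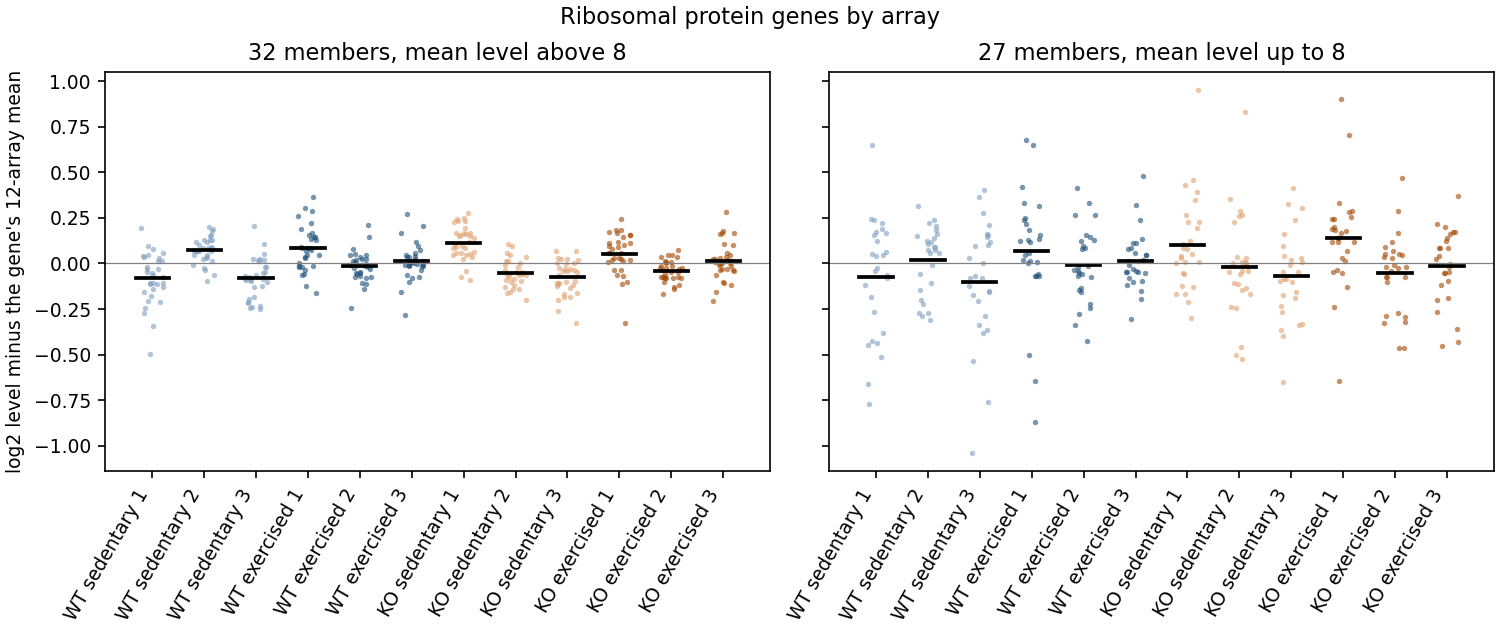
Deviation of each gene's log2 level from its own 12-array mean (vertical axis) on each array, for 32 bright genes (left) and 27 dim genes (right); points are genes, bars are means over genes, WT is wild type and KO is REDD1 knockout. Bright genes move up or down together on an array, as on knockout sedentary replicate 1, by more than the group means differ, and dim genes scatter more widely.

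Covariation within groups was described by correlating genes over the 12 arrays after each group's mean was removed, which leaves 8 degrees of freedom. Over the 496 pairs of bright genes the median Pearson's r was 0.493, and over the pairs of the 2104 bright genes tested it was 0.168. It was 0.378 among bright genes with clusters in their own neighbourhood and 0.576 among those with clusters elsewhere. Pairs of the 27 dim genes had a median of 0.0787, against 0.0179 for genes tested that were not bright. The 12 fast muscle markers had 0.395 and 17 other genes with TOP messages 0.0191. All pairs share the same arrays and their scaling, so these values are descriptions without a p.

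Genes of ribosome production and translation outside the set were described from lists chosen for the pathway. For exercise averaged over genotypes, limma called 1 of 41 ribosome assembly factors, where it called 1.6% of all genes. This was Gnl3, which encodes the nucleolar GTPase nucleostemin. Gnl3 read 7.34, 7.24 and 7.41 for sedentary wild type, 7.42, 7.67 and 7.65 for exercised wild type, 7.27, 7.03 and 7.13 for sedentary knockout and 7.65, 7.66 and 7.46 for exercised knockout. All exercised values exceeded all sedentary values within each genotype, and Gnl3 rose by 0.35 (SE 0.08, adjusted p = 0.0277). The median over the 41 factors was 0.03.

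At an unadjusted p under 0.05, 11.2% of all genes differed for exercise averaged over genotypes. In the other lists limma called none: 0 of 19 genes of RNA polymerase I and ribosomal DNA transcription (3 higher at an unadjusted p under 0.05, median 0.04), 0 of 18 of translation initiation (1 higher, median 0.02) and 0 of 17 other TOP messages (0 at an unadjusted p under 0.05, median 0.05). For genotype averaged over conditions these lists and the assembly factors had 0 called, with medians of 0, -0.01, 0.03 and -0.02. Markers of other cells were examined for exercise averaged over genotypes. Of 8 endothelial markers, limma called 2, both lower: the VEGF receptor gene Kdr (-0.80, SE 0.09) and the cadherin gene Cdh5 (-0.28, SE 0.07). At an unadjusted p under 0.05, 4 of the 8 were lower (median -0.24). The list's mean array level ran from 0.047 to 0.166 on sedentary and from -0.221 to -0.046 on exercised arrays. Of 12 matrix and fibroblast markers, 0 were called and 4 were lower at an unadjusted p under 0.05 (median -0.27). For exercise in the knockout alone, 0 of these 12 were called and 8 were lower in this way (median -0.47). Of 9 leukocyte markers, 0 were called there and 3 were lower (median -0.21). In the knockout, limma called 0.276% of all genes for exercise, and 8.93% had an unadjusted p under 0.05. The mean level of the matrix list was 0.175, -0.138 and 0.87 on sedentary and -0.187, -0.171 and -0.298 on exercised knockout arrays. Its fall there thus rests largely on sedentary replicate 3. The part of these markers in the values of the ribosomal protein genes was not tested.

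A further 3 genes encode ribosomal proteins under names that the rule does not cover and passed the filter. Fau, which encodes a fusion of a ubiquitin-like protein and a small-subunit protein, differed by 0.02 (SE 0.08) with exercise and 0.02 (SE 0.08) with genotype. Rpl7l1 differed by -0.04 (SE 0.10) and -0.21 (SE 0.10). Rps3a1, a small-subunit protein gene, read 9.19, 9.46 and 9.27 for sedentary wild type, 9.35, 9.41 and 9.5 for exercised wild type, 8.81, 8.87 and 8.11 for sedentary knockout and 9.06, 8.72 and 9.58 for exercised knockout. The sedentary knockout values lay below all wild-type sedentary values (-0.71, SE 0.20, limma adjusted p = 0.318), with the lowest on replicate 3, and the exercised groups overlapped. Averaged over conditions the difference was -0.51 (SE 0.14, limma adjusted p = 0.162). With exercise Rps3a1 differed by 0.12 (SE 0.20) in wild type, 0.53 (SE 0.20, limma adjusted p = 0.408) in the knockout and 0.32 (SE 0.14, limma adjusted p = 0.405) on average.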

How the data were processed

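The submitters deposited 1 table of log2 values for 41345 transcript clusters on 12 arrays; the log2 scale was read from the range of the values (0.357 to 13.9), and background correction, normalization and summarisation are not given in the sources used here. Partek is named in the submitters' processing notes, without a version. No sample column was left unused (0) and no value was missing (0).

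Platform annotation gave 1 symbol to 23521 clusters, several to 1814 and none to 16010; only the first were tested by gene. For a gene with several clusters the brightest was used. Genes above the table median of 4.56 in at least 3 arrays were tested (13747), a filter that a gene can pass through 1 group alone.

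The model was fitted with limma 3.58.1 under R 4.3.3 (lmFit and trended eBayes), with 1 mean per group over all 12 arrays and 8 residual degrees of freedom. From this fit 7 contrasts were drawn, p-values were two-sided and adjusted by Benjamini-Hochberg over all genes tested, and calls were made at 0.05. The main limma fit was tested on simulated data with planted knockout differences. The alternative fits, the cluster places, the sequence search and the correlations were not tested in this way. Standard errors and intervals are those of the fit. The number of arrays limits the precision.

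The members and the gene lists were chosen with earlier results of these data known. Named genes were those with a distinct role, and in each contrast the 3 members with the smallest p in each direction, every called member, Ddit4, ribosomal protein genes outside the rule and called genes of other lists. Rpl4, Rpl10a, Rpl14, Rpl15, Rpl17, Rpl23a, Rpl28, Rpl30, Rps4x, Rps24, Rps26, Rpl7a, Rpl38 and Rps18 were added after their values were seen, with all other genes read from clusters elsewhere, as were the check of each cluster's place and the fits based on it. RefSeq tables (GRCm38.p6) gave gene order and promoters. Protein sequences were not used here. The alternatives covered the filter, scaling, variance prior, array weights, the samples fitted, the choice of cluster, the paralogues and each array left out.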

Additional observations from a re-analysis of the deposited data

How the results depend on the processing

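For genotype averaged over conditions, the main fit called 1 ribosomal protein gene and 75 of all genes tested. The count was 0 without the filter on low values (51 of all genes), 0 without the intensity trend (42) and 0 without moderation (23). It was 0 with own-neighbourhood clusters (74 of all genes) and 0 over all clusters that list a ribosomal protein (82 of all clusters). With array weights it was 2, where limma called 193 of all genes. These were Rps13 (0.83, limma adjusted p = 0.0322) and Rpl29 (-0.26, limma adjusted p = 0.0308). The own-neighbourhood fit held 48 genes of the set and could not call Rps13, which has no such cluster. With 1 array left out, the genotype count ranged from 0 to 1, as did the count for exercise averaged over genotypes. The cause was not tested. The calls were Rps13, Rpl29 without wild-type exercised replicate 1 (-0.27, adjusted p = 0.0453) and Rpl9 without wild-type sedentary replicate 2 (0.45, adjusted p = 0.0146). For the other 5 contrasts the count was 0 in all 12 such fits (0 to 0), by limma.

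Leaving out 1 array moved the median over these genes from 0.03 to 0.11 for exercise in wild type, -0.02 to 0.06 for exercise in knockout, -0.08 to 0.02 for the difference of exercise effects, -0.04 to 0.08 for genotype when sedentary, -0.04 to 0.03 for genotype when exercised, 0 to 0.06 for exercise averaged and -0.03 to 0.04 for genotype averaged. Rps13 ranged from 0.87 to 1.15.

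Signs turned when another cluster was read, because a different cluster enters. With own-neighbourhood clusters, Rpl29 stood at 0.34 for genotype averaged, 0.33 when sedentary and 0.35 when exercised, Rpl3 at 0.01 for genotype averaged, and Rpl9 at -0.24 for exercise averaged, -0.36 in wild type and -0.11 in knockout. With the mean of a gene's clusters, Rpl29 stood at 0.05, 0.07 and 0.03 and Rpl9 at -0.01 for exercise in wild type. No paired analysis was possible because the labels number the samples from 1 to 12 and the groups share no number. The own-neighbourhood fit and the fit of all clusters were chosen after seeing the data. Signal near the table median limits the dim genes, whose median standard error was 0.16 against 0.10 in bright genes.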

Other observations

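Clusters left out of the gene-level comparison carry further ribosomal protein signal. Of the clusters with several symbols, 57 list a ribosomal protein, and 12 of the 64 genes, among them Rplp2, Rpl27a and Rpl30, are listed in such a cluster that is brighter than their own. In a fit of all 22506 clusters that passed the filter, 151 of the 165 clusters that list a ribosomal protein were tested and limma called 0 of them in every contrast; the smallest adjusted p was 0.0573, for genotype averaged over conditions, where 0.364% of all clusters were called. Their median difference was 0.04 for exercise averaged over genotypes and 0.02 for genotype averaged over conditions.

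Of the pairs of clusters in both kinds of place, Rps24 read 0.09 (SE 0.07) for exercise averaged over genotypes on its brighter cluster and -0.26 (SE 0.15) on that of its own neighbourhood, and for genotype 0.07 (SE 0.07) and 0.29 (SE 0.15). Rpl7a read 0.04 (SE 0.08) and 0.21 (SE 0.11) for genotype. None of these was called.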
